A study of Mus musculus with 9 samples.

Results

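A set of 10 acute phase genes was followed in mouse liver: the serum amyloid A genes Saa1, Saa2, Saa3 and Saa4, the haemoglobin and haem carriers Hp and Hpx, the orosomucoids Orm1 and Orm2, lipocalin-2 (Lcn2) and serum amyloid P (Apcs). These 10 genes were chosen by name out of the 27179 genes of the count table, with earlier results of these data known, and all 10 had enough counts to be tested. The livers came from female mice that received a cholesterol-rich high-fat diet (HFD) for 12 weeks from the age of 8 weeks. Every animal lacked Apoe, the lipoprotein ligand whose loss makes mice hypercholesterolaemic and prone to atherosclerosis. The Apoe-/- group, labelled WT in the series although it is not wild type, gave 5 libraries, and the Mif-2-/-Apoe-/- group, labelled DKO, gave 4. The second deletion removes macrophage migration inhibitory factor 2 (gene symbol Ddt) from all tissues, so an effect of its loss in hepatocytes and an effect of its loss elsewhere in the body cannot be told apart. RNA was captured with oligo-dT beads from combined lysates of paraformaldehyde-fixed, embedded frozen liver sections and amplified by Smart-seq2, a full-length cDNA protocol. The effect of fixation on the counts was not tested. The labels do not say whether each library is a separate animal, and the paper describes fewer mice per group than there are Apoe-/- libraries, so some Apoe-/- libraries may share an animal. The p-values measure the spread between these libraries, which may be partly technical, and are too small if libraries share an animal. The question was whether loss of Mif-2 on the Apoe-deficient, HFD-fed background goes with a different level of acute phase transcripts in the liver.

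The acute phase response is the change in plasma proteins that follows infection, injury or chronic inflammation, and hepatocytes make most of these proteins. Interleukin-6 acts on them through STAT3, and interleukin-1 and tumour necrosis factor act through NF-kB and C/EBP factors. Positive acute phase genes rise and negative ones, such as albumin, fall. Serum amyloid A is carried in plasma on high-density lipoprotein, which ties the response to lipid transport and to atherosclerosis.

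The promoters of the serum amyloid A genes are shown because 3 of these genes gave the largest differences between genotypes among the 10, while the fourth, Saa4, did not. Sequences were taken from RefSeq (GRCm38.p6) and run 5′ to 3′ over the 250 bases upstream of the start site that the RefSeq promoter table used, which for Saa1 and Saa3 lies inside the span that RefSeq gives for the gene. Capitals mark the letters TTGCNNAA, a C/EBP motif, read on either strand. The Saa1 window lies at chr7:46742981-46743230 on the minus strand, and the Saa2 window at chr7:46751583-46751832 on the plus strand. The Saa3 window lies at chr7:46715677-46715926 and the Saa4 window at chr7:46732604-46732853, both on the minus strand.
Saa1: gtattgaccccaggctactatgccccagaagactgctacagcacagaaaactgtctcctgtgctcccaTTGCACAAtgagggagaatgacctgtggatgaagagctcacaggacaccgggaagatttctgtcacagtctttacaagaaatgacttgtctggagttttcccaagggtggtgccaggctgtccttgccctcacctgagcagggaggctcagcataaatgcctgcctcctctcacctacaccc
Saa2: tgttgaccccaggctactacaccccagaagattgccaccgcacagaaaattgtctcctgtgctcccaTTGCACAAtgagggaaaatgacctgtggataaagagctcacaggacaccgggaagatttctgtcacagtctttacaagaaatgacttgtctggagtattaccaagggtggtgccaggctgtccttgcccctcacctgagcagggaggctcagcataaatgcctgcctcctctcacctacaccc
Saa3: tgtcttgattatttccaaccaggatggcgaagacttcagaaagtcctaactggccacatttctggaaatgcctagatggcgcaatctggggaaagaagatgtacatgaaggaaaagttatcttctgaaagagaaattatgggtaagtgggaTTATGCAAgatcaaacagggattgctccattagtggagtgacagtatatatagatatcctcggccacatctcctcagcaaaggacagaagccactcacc
Saa4: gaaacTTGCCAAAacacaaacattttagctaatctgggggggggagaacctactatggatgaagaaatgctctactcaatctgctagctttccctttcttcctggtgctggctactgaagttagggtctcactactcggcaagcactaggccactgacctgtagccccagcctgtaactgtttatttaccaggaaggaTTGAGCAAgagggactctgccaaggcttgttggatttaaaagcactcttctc
The Saa1 and Saa2 windows were identical at 94.8% of aligned positions and held the same match, TTGCACAA, starting 182 and 183 bases upstream. Saa3 held its match 99 bases upstream, and Saa4 held matches 245 and 52 bases upstream. Of the 10 genes, 8 had a promoter in the table, and 7 of the 8 held these letters, against 9.56% of the 32851 promoters in it. The other matches were TTGCTGAA in Hpx, TTGCGCAA in Orm2 and TTGCTCAA in Lcn2, and Apcs had none. The STAT letters TTCNNNGAA were found in Apcs (7.02% of all promoters) and the letters TATAAA in Orm2 (12.4%). The NF-kB letters GGGRNNYYCC, with R for A or G and Y for C or T, were found in none of the 8 (7.25%). Variants of these letters were not searched, so other NF-kB sites could be present. Since Saa4 held the C/EBP letters too, their presence did not separate the gene that differed least from the others.

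The serum amyloid A genes lie side by side on chromosome 7, within 42.3 kb. Saa1 (Entrez 20208, chr7:46740497-46743181, minus strand) and Saa2 (Entrez 20209, chr7:46751833-46754313, plus strand) point away from each other across a gap of 8.65 kb. Their coding sequences are identical at 95.1% of positions, against 75.9% for Saa1 and Saa3 (Entrez 20210, chr7:46711998-46719615) and 65.0% for Saa1 and Saa4 (Entrez 20211, chr7:46727992-46732603). Hpx (Entrez 15458) lies elsewhere on the same chromosome at 7:105591611-105600116, and Hp (Entrez 15439) on chromosome 8 at 8:109575128-109579172. Orm1 (Entrez 18405, 4:63344556-63348163) and Orm2 (Entrez 18406, 4:63362449-63365877) stand 14.3 kb apart in the same orientation, with 89.9% identical coding positions. Lcn2 (Entrez 16819) lies at 2:32384637-32387739 and Apcs (Entrez 20219) at 1:172893961-172895054. Because the authors counted reads on exons, reads of Saa1 and Saa2, or of Orm1 and Orm2, could have been assigned to the wrong copy, so the sum of each pair was also tested. In addition, RefSeq lists the symbols Saa1 and Saa2 as synonyms of each other, and the names used here follow the Entrez identifiers.

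Total counts ranged from 2886407 to 10764182 in the Apoe-/- libraries and from 2318148 to 5467917 in the Mif-2-/-Apoe-/- libraries. Ddt itself had 4304, 4806, 1815, 4820 and 1205 counts in Apoe-/- replicates 1 to 5 and 27, 6, 21 and 11 counts in Mif-2-/-Apoe-/- replicates 1 to 4, as the labels state. A single library of each genotype stood apart. Albumin (Alb) took 2.63% of counts in Apoe-/- replicate 5 against 4.50 to 5.43% in the other Apoe-/- libraries, and 6.62% in Mif-2-/-Apoe-/- replicate 2 against 2.44 to 3.06% in the other Mif-2-/-Apoe-/- libraries. The nuclear RNA Malat1 went the other way, at 777 CPM (counts scaled to library size with TMM factors) in Apoe-/- replicate 5 against 206 to 367 CPM in its group, and at 198 CPM in Mif-2-/-Apoe-/- replicate 2 against 547 to 1060 CPM. Malat1 thus also separated the other libraries by genotype, and so did the mitochondrial share of counts, at 0.154 to 0.234% in Apoe-/- replicates 1 to 4, 0.624% in Apoe-/- replicate 5 and 0.386 to 0.748% in the Mif-2-/-Apoe-/- libraries. The part of these library differences in the results was not tested. Results are therefore given with and without these libraries. In bulk tissue, fewer hepatocytes and less of a transcript per hepatocyte cannot be told apart.

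Mean levels of all 10 acute phase genes were higher in Apoe-/- than in Mif-2-/-Apoe-/- livers, with a median log2 fold change of 1.30 (Apoe-/- over Mif-2-/-Apoe-/-) against -0.10 over the 16870 genes tested, of which 46.3% were higher in Apoe-/- livers. None of the 10 was called by edgeR's quasi-likelihood test with Benjamini-Hochberg adjustment over all genes, where 0.0771% of genes were called higher in Apoe-/- livers. The lowest adjusted p of the 10 was 0.0982, for Saa2. It was 0.374 when Apoe-/- replicates 1 and 2, and 3 and 4, were each summed to 1 library (0.0122% of genes called higher). This alternative was chosen after seeing the data. These pairs had the lowest chi-square per degree of freedom among the Apoe-/- libraries (23.2 and 28.6). By mean absolute log2 difference, however, replicates 3 and 4 (1.18) were less alike than replicates 2 and 4 (0.970). At an unadjusted edgeR p under 0.05, 8 of the 10 were higher in Apoe-/- livers, against 7.66% of all genes. DESeq2 called 4 of them at an adjusted p under 0.05, namely Saa1, Saa2, Saa3 and Lcn2, against 2.42% of the genes to which it gave an adjusted p. In two-sided exact permutation tests over the 126 arrangements of the 9 libraries, 7 had a p under 0.05, against 7.10% of all genes. The values of the 2 genotypes did not overlap for 1 gene, Saa2, against 2.59% of all genes.

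**Figure D1:**
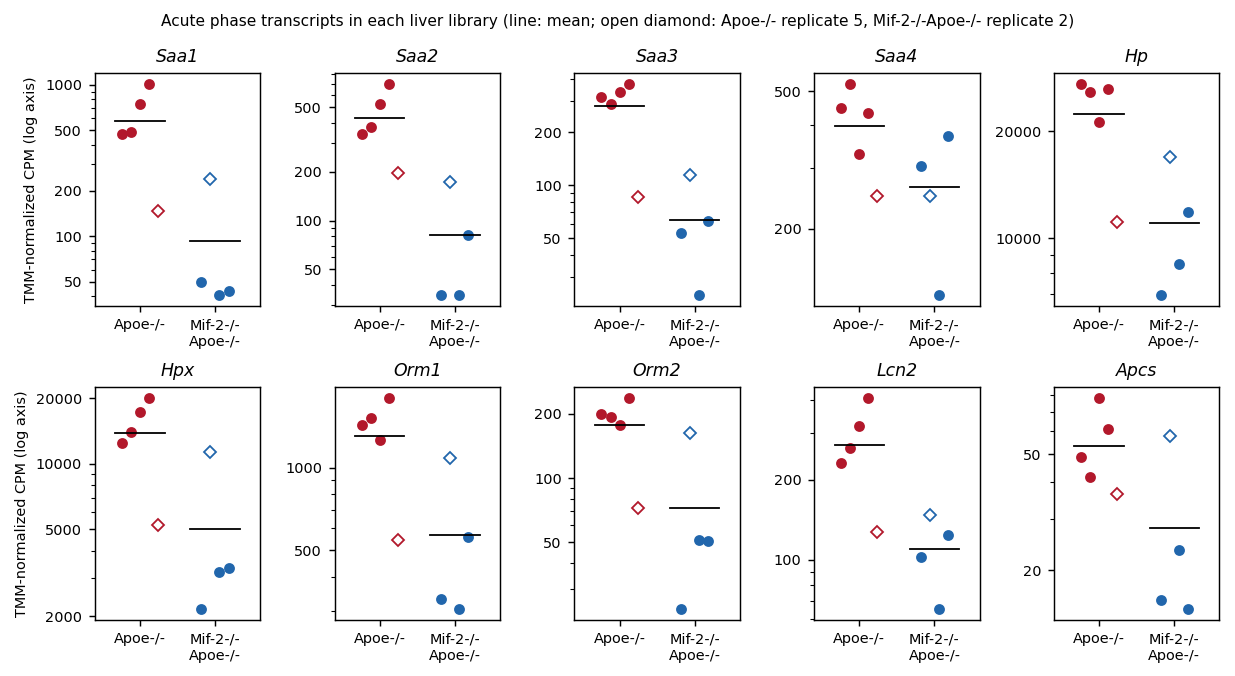
TMM-normalized CPM (log axes) of the 10 acute phase genes in each library, by genotype. Each point is a library, lines are means, and open diamonds are Apoe-/- replicate 5 and Mif-2-/-Apoe-/- replicate 2, which lie at the low end of the Apoe-/- and mostly at the high end of the Mif-2-/-Apoe-/- values.

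Saa1 and Saa2 are the major inducible serum amyloid A genes of mouse liver. Saa1 measured 473, 486, 750, 1015 and 145 CPM in Apoe-/- replicates 1 to 5, and 49.5, 237, 40.6 and 43.1 CPM in Mif-2-/-Apoe-/- replicates 1 to 4. The genotypes overlapped only because Apoe-/- replicate 5 lay below Mif-2-/-Apoe-/- replicate 2, and the other 4 Apoe-/- libraries were above every Mif-2-/-Apoe-/- library. The means were 574 ± 327 (SD, n = 5) and 92.5 ± 96.3 CPM (SD, n = 4), and the fitted log2 fold change was 2.64 (SE 0.64, edgeR adjusted p = 0.125, DESeq2 adjusted p = 0.00462, exact permutation p = 0.0238). Saa2 measured 343, 380, 528, 699 and 196 CPM in Apoe-/- livers, and 34.8, 174, 34.7 and 81.1 CPM in Mif-2-/-Apoe-/- livers. Here even the lowest Apoe-/- library, replicate 5, was above the highest Mif-2-/-Apoe-/- library, replicate 2. The means were 429 ± 192 (SD, n = 5) and 81.1 ± 65.6 CPM (SD, n = 4), and the fitted log2 fold change was 2.41 (SE 0.53, edgeR adjusted p = 0.0982, DESeq2 adjusted p = 0.00188). The exact permutation p of Saa2 was 0.00794, the smallest that 5 against 4 libraries can give. Summed, Saa1 and Saa2 gave 1003 ± 518 CPM (SD, n = 5) against 174 ± 159 CPM (SD, n = 4) and a fitted value of 2.53 on the log2 scale (SE 0.57, edgeR adjusted p = 0.105), so the difference did not rest on how reads were divided between the copies. Saa1 over Saa2 counts differed by 0.22 on the log2 scale between genotypes (exact permutation p = 0.50).

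Saa3 is the serum amyloid A gene that macrophages and adipocytes also express. It measured 318, 288, 341, 378 and 85.5 CPM in Apoe-/- livers, and 53.6, 114, 23.7 and 62.8 CPM in Mif-2-/-Apoe-/- livers. As with Saa1, Apoe-/- replicate 5 alone fell into the range of the Mif-2-/-Apoe-/- libraries. The means were 282 ± 115 (SD, n = 5) and 63.5 ± 37.4 CPM (SD, n = 4), and the fitted log2 fold change was 2.16 (SE 0.49, edgeR adjusted p = 0.107, DESeq2 adjusted p = 0.00274, exact permutation p = 0.0238). Markers of macrophages and Kupffer cells, 8 genes with Adgre1, Clec4f and Vsig4 among them, summed to 780 to 1713 CPM in Apoe-/- and 861 to 1196 CPM in Mif-2-/-Apoe-/- libraries. The 5 adipocyte markers summed to 4.75 to 32.8 CPM and 9.83 to 45.9 CPM. Both ranges overlapped between genotypes. For macrophages and Kupffer cells, Apoe-/- replicates 1, 2 and 4 (1685, 1713 and 1527 CPM) lay above every Mif-2-/-Apoe-/- library, and Apoe-/- replicate 5 was below them all. Of the macrophage and Kupffer cell markers 6 of 8 were higher in Apoe-/- livers, and of the adipocyte markers 2 of the 4 tested. EdgeR called none of those tested, where 0.148% of all genes were called in either direction.

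Saa4, the constitutive member of the family on high-density lipoprotein, differed least. It measured 446, 526, 330, 434 and 249 CPM in Apoe-/- livers and 304, 249, 128 and 372 CPM in Mif-2-/-Apoe-/- livers. Apoe-/- replicates 1, 2 and 4 lay above every Mif-2-/-Apoe-/- library, and replicates 3 and 5 lay within their range. The means were 397 ± 108 (SD, n = 5) and 263 ± 103 CPM (SD, n = 4), and the log2 fold change of 0.59 (SE 0.35) did not pass edgeR (adjusted p = 0.440), DESeq2 (adjusted p = 0.405) or the exact permutation test (p = 0.111). Relative to Saa4 in the same library, which removes any scaling between libraries, Saa1 and Saa2 together stood at ratios of 1.83, 1.65, 3.87, 3.95 and 1.37 in Apoe-/- livers and 0.277, 1.65, 0.587 and 0.334 in Mif-2-/-Apoe-/- livers. In 3 of 4 Mif-2-/-Apoe-/- libraries Saa4 had more counts than Saa1 and Saa2 combined, which was the case in none of the Apoe-/- libraries. The log2 ratio differed by 2.07 between genotypes (exact permutation p = 0.0238, Benjamini-Hochberg adjusted p = 0.0595 over 5 ratios). That of Saa3 to Saa4 differed by 1.55 (exact permutation p = 0.0238, adjusted p = 0.0595).

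**Figure D2:**
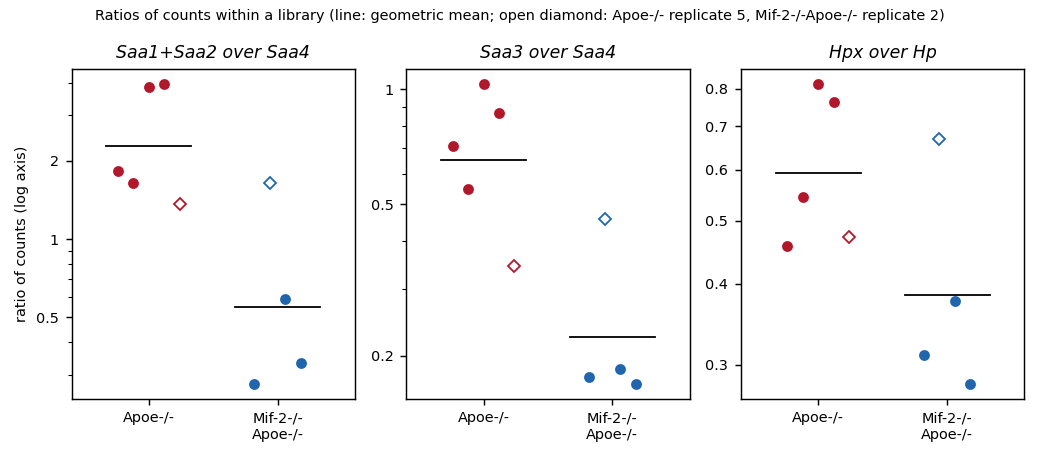
Ratios of counts within each library (log axes) for Saa1 plus Saa2 over Saa4, Saa3 over Saa4, and Hpx over Hp, by genotype. Lines are geometric means and open diamonds are Apoe-/- replicate 5 and Mif-2-/-Apoe-/- replicate 2, which overlap with the other genotype in all 3 panels.

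Hp and Hpx, which bind free haemoglobin and free haem in plasma, were the most abundant of the 10 and belonged to the 10 genes with the highest mean CPM of the table. Hp measured 27209, 25803, 21305, 26371 and 11106 CPM in Apoe-/- livers, and 6929, 16986, 8496 and 11835 CPM in Mif-2-/-Apoe-/- livers. The 4 other Apoe-/- libraries lay above all Mif-2-/-Apoe-/- libraries, and replicate 5 lay within them. The means were 22359 ± 6694 (SD, n = 5) and 11061 ± 4448 CPM (SD, n = 4), and the fitted log2 fold change was 1.02 (SE 0.41, edgeR adjusted p = 0.253, exact permutation p = 0.0397). Hpx measured 12426, 14047, 17301, 20106 and 5240 CPM in Apoe-/- livers, and 2153, 11360, 3198 and 3318 CPM in Mif-2-/-Apoe-/- livers. Mif-2-/-Apoe-/- replicate 2 was far above the rest of its group and above Apoe-/- replicate 5. The means were 13824 ± 5640 (SD, n = 5) and 5007 ± 4267 CPM (SD, n = 4), and the fitted log2 fold change was 1.47 (SE 0.53, edgeR adjusted p = 0.212, exact permutation p = 0.0397). The log2 ratio of Hpx to Hp differed by 0.62 (exact permutation p = 0.0952, adjusted p = 0.159).

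Orm1 and Orm2 encode α1-acid glycoproteins, which carry drugs and lipids in plasma. Orm1 measured 1431, 1517, 1260, 1803 and 545 CPM in Apoe-/- livers, and 331, 1082, 304 and 559 CPM in Mif-2-/-Apoe-/- livers. Again Apoe-/- replicate 5 lay within the Mif-2-/-Apoe-/- range. The means were 1311 ± 471 (SD, n = 5) and 569 ± 361 CPM (SD, n = 4), and the fitted log2 fold change was 1.21 (SE 0.44, edgeR adjusted p = 0.216, exact permutation p = 0.0556). Orm2 measured 201, 194, 178, 238 and 72.6 CPM in Apoe-/- livers, and 24.3, 162, 51.4 and 50.4 CPM in Mif-2-/-Apoe-/- livers, with the same 2 libraries overlapping. Its log2 fold change was 1.30 (SE 0.50, edgeR adjusted p = 0.233, exact permutation p = 0.0476), and that of the pair summed was 1.22 (SE 0.45, edgeR adjusted p = 0.217). Orm2 over Orm1 counts differed by 0.25 on the log2 scale (exact permutation p = 0.397).

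Lcn2 binds bacterial siderophores and is made by neutrophils as well as by hepatocytes. It measured 232, 263, 318, 407 and 127 CPM in Apoe-/- livers, and 103, 147, 65.2 and 124 CPM in Mif-2-/-Apoe-/- livers, so that Apoe-/- replicate 5 lay below Mif-2-/-Apoe-/- replicate 2 alone. The means were 269 ± 104 (SD, n = 5) and 110 ± 34.8 CPM (SD, n = 4), and the fitted log2 fold change was 1.30 (SE 0.37, edgeR adjusted p = 0.153, DESeq2 adjusted p = 0.0322, exact permutation p = 0.0238). The 10 neutrophil markers summed to 2.68 to 26.1 CPM in Apoe-/- and 3.11 to 49.4 CPM in Mif-2-/-Apoe-/- libraries, and Ly6g had no count in any library. Mif-2-/-Apoe-/- replicates 2, 3 and 4 (37.4, 49.4 and 37.2 CPM) lay above every Apoe-/- library, and replicate 1 lay within the Apoe-/- range. Of the 7 neutrophil markers tested, 3 were higher in Apoe-/- livers. Apcs, a pentraxin that is a main acute phase protein of mice, measured 48.8, 41.7, 78.0, 61.0 and 36.4 CPM in Apoe-/- livers, and 15.9, 57.5, 23.5 and 14.7 CPM in Mif-2-/-Apoe-/- livers. All Apoe-/- libraries were above 3 of the 4 Mif-2-/-Apoe-/- libraries, and Mif-2-/-Apoe-/- replicate 2 lay among them. The log2 fold change of Apcs was 0.94 (SE 0.47, edgeR adjusted p = 0.344, exact permutation p = 0.0635).

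Per kilobase of transcript, Hp led in both genotypes, at 16624 ± 4977 CPM per kb (SD, n = 5) in Apoe-/- and 8224 ± 3307 (SD, n = 4) in Mif-2-/-Apoe-/- livers, followed by Hpx and Orm1. In Apoe-/- livers Saa1 (942 ± 537 CPM per kb), Saa2 (709 ± 316) and Saa3 (508 ± 206) came next, with spreads that overlapped, and Saa4 stood at 190 ± 51.7. In Mif-2-/-Apoe-/- livers the means of Saa1, Saa2, Saa3 and Saa4 lay close together, at 152 ± 158, 134 ± 108, 114 ± 67.4 and 126 ± 49.2 CPM per kb. The Saa1 mean rested on replicate 2, at 237 CPM against 40.6 to 49.5 CPM in the other Mif-2-/-Apoe-/- libraries. Saa4 was divided by a transcript of 2094 bases, and Saa1, Saa2 and Saa3 by 555 to 609 bases. Apcs was lowest in both genotypes, at 54.8 ± 17.2 and 28.7 ± 20.7 CPM per kb.

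Apoe-/- replicate 5 was the lowest Apoe-/- library for all 10 genes, and Mif-2-/-Apoe-/- replicate 2 was the highest Mif-2-/-Apoe-/- library for 9, all but Saa4. Without replicate 5, edgeR called 4 genes, Saa1, Saa2, Saa3 and Lcn2 (1.07% of all genes were called higher in Apoe-/- livers). Without Mif-2-/-Apoe-/- replicate 2 it called 5, Saa1, Saa2, Saa3, Hpx and Orm2 (1.27%). Without both, 9 of the 10 did not overlap (11.4% of all genes) and edgeR called the same 9, all but Saa4 (5.40%). Since these were the libraries that overlapped, their removal widens the difference by construction, and the calls without them are not separate support. In the other direction, leaving out any of the remaining 7 libraries left none of the 10 called (0.0181 to 0.0369% of all genes).

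**Figure D3:**
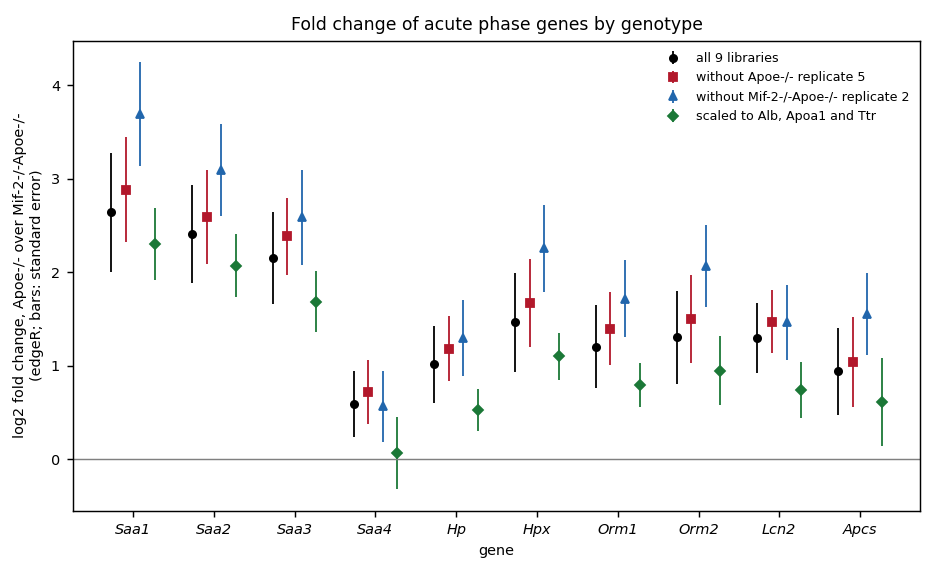
Log2 fold change (Apoe-/- over Mif-2-/-Apoe-/-) of each acute phase gene by edgeR, with bars for the standard error, over all 9 libraries, without Apoe-/- replicate 5, without Mif-2-/-Apoe-/- replicate 2, and with libraries scaled to the counts of Alb, Apoa1 and Ttr. Saa1, Saa2 and Saa3 stand above the others in every series, and Saa4 falls to 0.07 with that scaling.

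Because the libraries that stood apart differed in the share of abundant hepatocyte transcripts, each gene was also expressed per 1000 counts of Alb, Apoa1 and Ttr in the same library, a choice made after the values had been seen. These 3 plasma protein genes, for albumin, apolipoprotein A-I and transthyretin, are themselves negative acute phase genes, so they are not a neutral reference. On this scale Saa1 stood at 4.16, 4.13, 6.07, 6.19 and 3.06 in Apoe-/- livers and 0.788, 1.59, 0.841 and 0.616 in Mif-2-/-Apoe-/- livers, and the genotypes no longer overlapped. Saa2 stood at 3.02, 3.23, 4.28, 4.27 and 4.13 against 0.555, 1.16, 0.717 and 1.16. Hpx stood at 109, 119, 140, 123 and 110 against 34.3, 76.1, 66.1 and 47.4. Apoe-/- replicate 5 now lay among its group for Saa2 and Hpx, and Mif-2-/-Apoe-/- replicate 2 remained the highest of its group for Saa1, Saa2 and Hpx. In all, 7 of the 10 did not overlap, Saa1, Saa2, Saa3, Hpx, Orm1, Orm2 and Lcn2, against 2.31% of all genes, and each of the 7 had an exact permutation p of 0.00794, against 3.80% of all genes with a p under 0.05. Apoe-/- replicate 5 and Mif-2-/-Apoe-/- replicate 2 stood apart by their share of Alb, so this scaling raises the former and lowers the latter. Because these were the libraries that overlapped, the loss of overlap follows in part from the scaling and is not separate support. The median log2 difference was 0.93 for the 10 and -0.63 for all genes. Saa4 had 3.79 ± 1.13 (SD, n = 5) against 3.62 ± 1.74 (SD, n = 4) per 1000, a log2 difference of 0.16 (exact permutation p = 0.706). Hp differed by 0.54 (exact permutation p = 0.0635) and Apcs by 0.62 (exact permutation p = 0.135). In edgeR with libraries scaled this way, Saa1 and Saa2 summed had a log2 fold change of 2.20 (SE 0.32, adjusted p = 0.0406), and none of the 10 single genes was called (0.0119% of all genes were called higher in Apoe-/- livers).

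The count of genes without overlap depended on the reference. It was 6 with Alb alone (1.42% of all genes), 9 with Apoa1 alone (4.07%), 3 with Ttr alone (0.545%) and 3 with Cyp2e1 alone (0.664%). Saa1, Saa2 and Saa3 were the 3 with Ttr and with Cyp2e1, and they were without overlap with each of the 5 references. Saa4 was lower in Apoe-/- livers relative to Alb, Ttr or Cyp2e1, and Hp was lower relative to Ttr.

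**Figure D4:**
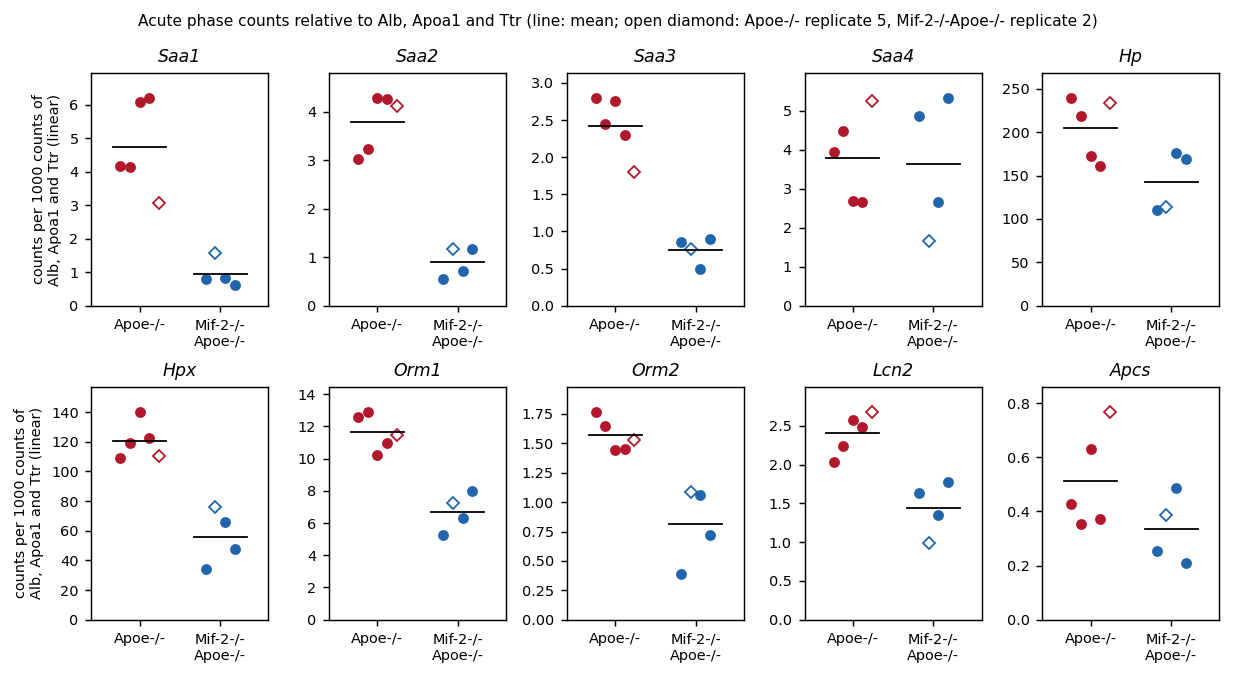
Counts of each acute phase gene per 1000 counts of Alb, Apoa1 and Ttr in the same library (linear axes from 0), by genotype. Lines are means and open diamonds are Apoe-/- replicate 5 and Mif-2-/-Apoe-/- replicate 2, and the genotypes are apart for Saa1, Saa2, Saa3, Hpx, Orm1, Orm2 and Lcn2 and overlap for Saa4, Hp and Apcs.

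The 10 genes did not all follow the same pattern over the 9 libraries. By the root mean square difference of log2 CPM centred on each gene's mean, the closest pairs were Hpx with Orm2 (0.216) and Hp with Orm1 (0.265), and the farthest was Saa1 with Saa4 (1.45). Among the 7405 genes that averaged 10 CPM or more, those most like Saa1 were Ndufa4 (0.189), Atp5g3 (0.269) and Ndufab1 (0.343), which encode parts of the mitochondrial respiratory chain and ATP synthase. The nearest to Saa3 were S100a10 (0.184), Ndufc1 (0.278) and Fabp2 (0.297). Hp was matched most closely by Uqcrc1 (0.0665), Dnlz (0.120) and Ctsd (0.134). Lcn2 was matched by Slc27a5 (0.112), Lgals9 (0.145) and Tomm6 (0.146). None of these 12 was another gene of the 10. All of these patterns were taken over the same 9 libraries, whose shares of hepatocyte transcripts differed.

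Other acute phase genes were read from lists of fixed membership. Of 20 further positive acute phase genes, 16 were higher on average in Apoe-/- livers, with a median log2 fold change of 0.67. None was called by edgeR and 5 by DESeq2, all higher in Apoe-/- livers (2.42% of the tested genes with a DESeq2 adjusted p). The 5 were Crp, C3, Fgg, Lbp and Lrg1, of which the last 4 are named here after their values were seen. Crp, C-reactive protein, measured 29.3, 53.0, 38.4, 42.2 and 38.5 CPM in Apoe-/- livers and 4.51, 11.1, 6.58 and 17.2 CPM in Mif-2-/-Apoe-/- livers. Its genotypes did not overlap, with Apoe-/- replicate 5 and Mif-2-/-Apoe-/- replicate 2 inside their own groups, and its log2 fold change was 2.03 (SE 0.49, edgeR adjusted p = 0.125, DESeq2 adjusted p = 0.00187). Il1rn, the interleukin-1 receptor antagonist, had a log2 fold change of 1.95 (SE 0.98, edgeR adjusted p = 0.353). The lowest of the list were the metallothionein Mt2 at -1.14 (SE 0.41, edgeR adjusted p = 0.208) and the protease inhibitor Timp1 at -0.68 (SE 0.73).

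The 10 negative acute phase genes had positive fold changes as well, 9 of 10 with a median of 0.93, so genes with opposite roles in the response lay on the same side. None was called by edgeR, and DESeq2 called 2, both higher in Apoe-/- livers (2.42% of the tested genes with a DESeq2 adjusted p). These were Trf (transferrin, log2 fold change 1.46, SE 0.42, DESeq2 adjusted p = 0.0102) and Apom (apolipoprotein M, 1.35, SE 0.35, DESeq2 adjusted p = 0.0121). Apoa1 stood at 0.19 (SE 0.43) and the corticosteroid carrier Serpina6 at -0.12 (SE 0.37).

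Among 14 receptors and clearance genes, none was called by edgeR and 4 by DESeq2, all higher in Apoe-/- livers (2.42% of the tested genes with a DESeq2 adjusted p). The 4 were Hmox1, Blvrb and the ferritin subunits Fth1 and Ftl1, of which the ferritin genes are named after their values were seen. Hmox1, the haem-degrading enzyme downstream of haem uptake, had means of 67.8 ± 42.0 (SD, n = 5) and 12.4 ± 6.08 CPM (SD, n = 4) in Apoe-/- and Mif-2-/-Apoe-/- livers, respectively, and the fitted log2 fold change was 2.47 (SE 0.55, edgeR adjusted p = 0.0989, DESeq2 adjusted p = 0.00121). Blvrb, a biliverdin reductase, had a log2 fold change of 1.86 (SE 0.42, edgeR adjusted p = 0.103, DESeq2 adjusted p = 0.00315). The endocytic receptor Lrp2 stood at -1.21 (SE 1.07) and the pattern receptor Tlr2, which can bind serum amyloid A, at -1.02 (SE 0.93).

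Of 24 genes of interleukin-6, interleukin-1 and tumour necrosis factor signalling, 13 were higher and 11 lower in Apoe-/- livers, with a median of 0.02. EdgeR called none of these 24 (0.148% of all genes in either direction). DESeq2 called none of them either (2.42% of the tested genes with a DESeq2 adjusted p were called higher in Apoe-/- livers). At an unadjusted edgeR p under 0.05, 0 were higher and 2 lower in Apoe-/- livers, where 8.08% of all genes were lower. The 2 were Tyk2 and Il6, the gene of interleukin-6, which is named after its values were seen. In Apoe-/- livers Il6 was near the detection limit, at 0.348, 0, 0, 0 and 0.601 CPM. It measured 1.87, 0, 8.57 and 7.18 CPM in Mif-2-/-Apoe-/- livers. In Mif-2-/-Apoe-/- replicates 1, 3 and 4, 3 counts stand for 0.549, 0.780 and 0.600 CPM before TMM factors. Il6 was higher in 3 of the 4 Mif-2-/-Apoe-/- libraries than in any Apoe-/- library and did not pass adjustment (edgeR adjusted p = 0.194, exact permutation p = 0.0556). Irak4, a kinase of interleukin-1 signalling, stood at 1.04 (SE 0.90), Il1rap, a subunit of the interleukin-1 receptor, at 0.98 (SE 0.87), the oncostatin M receptor Osmr at -0.83 (SE 0.78) and the kinase Tyk2 at -1.06 (SE 0.45). Of 8 transcription factors of acute phase genes, 3 were higher and 5 lower, with a median of -0.42, and neither tool called any. At these shares over all genes, the lack of calls among so few factors says little. The extremes were Foxa3 at 0.95 (SE 0.38), Cebpa at 0.28 (SE 0.33), Cebpb at -0.61 (SE 0.33) and Cebpd at -0.69 (SE 0.45). The transcripts of C/EBP factors, whose letters stand in the promoters shown, were thus not shown to differ between genotypes.

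**Figure D5:**
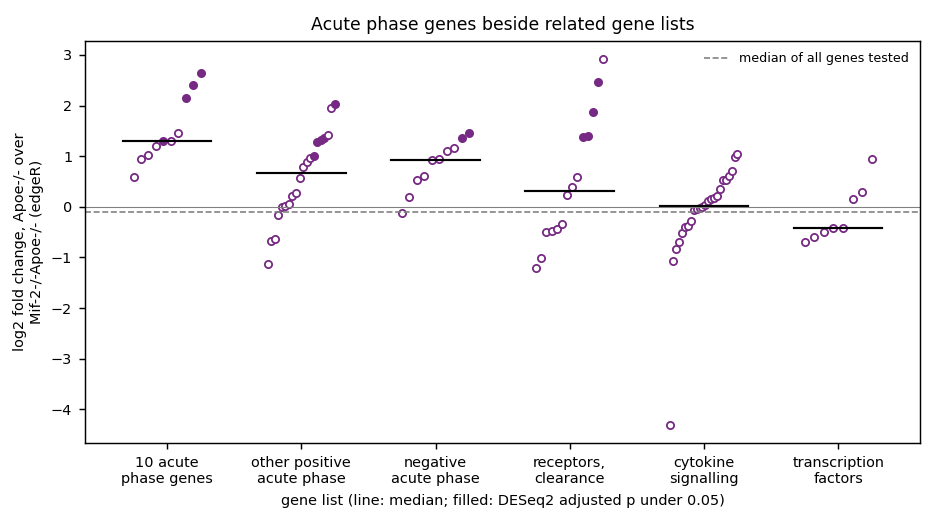
Log2 fold change (Apoe-/- over Mif-2-/-Apoe-/-, edgeR) of the 10 acute phase genes and of the genes of 5 related lists. Points are genes, filled where the DESeq2 adjusted p was under 0.05, the dashed line is the median of all genes tested, and the solid lines are list medians, 1.30 for the 10 genes, 0.67 and 0.93 for the other positive and negative acute phase genes and 0.02 for cytokine signalling.

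The 6 hepatocyte markers, Alb, Apoa1, Ttr, Cyp2e1, Cps1 and Tat, summed to 47644 to 165795 CPM in Apoe-/- and 48424 to 150383 CPM in Mif-2-/-Apoe-/- libraries. The lowest Apoe-/- value was that of replicate 5 and the highest Mif-2-/-Apoe-/- value that of replicate 2, the same libraries as for most of the 10 genes. Markers of the liver sinusoidal endothelium (170 to 269 against 104 to 306 CPM), stellate cells (178 to 344 against 167 to 385 CPM), cholangiocytes (69.8 to 262 against 52.0 to 238 CPM) and lymphocytes (5.21 to 19.0 against 7.77 to 29.8 CPM) overlapped between genotypes. The 4 erythroid markers in the table summed to 76.5 to 271 CPM and 45.5 to 170 CPM. EdgeR called none of the tested markers of these cell types, where 0.148% of all genes were called in either direction. Beyond the values per Alb, Apoa1, Ttr and Cyp2e1, the part of cell composition in the differences was not tested.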

How the data were processed

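Bulk RNA-seq was performed on fixed, frozen liver sections of 5 Apoe-/- and 4 Mif-2-/-Apoe-/- libraries, grouped by the genotype in their labels. Per the labels, the submitters' processing notes name FastQC, cutadapt, HISAT2 and mm10, without versions. The authors deposited raw counts of reads on exons per gene under Entrez identifiers, without normalization or UMIs. The table held 27179 genes and 1 line that repeated the header, which was left out. Symbols came from RefSeq (GRCm38.p6) for 25275 genes, and 1904 had none.

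A gene was tested if 3 or more libraries of 1 genotype had a count of 1 or more, which kept 16870 genes. The test was the quasi-likelihood test of edgeR 4.0.16 in R 4.3.3, with TMM factors, Benjamini-Hochberg adjustment and a threshold of 0.05. The biological coefficient of variation was 0.905. The 10 most abundant genes were kept, since Hp and Hpx are among them, and left out as an alternative. DESeq2 1.42.0 was an alternative and gave no adjusted p for 8446 genes. Exact permutation tests were two-sided, on the difference in mean log2(CPM + 0.5) or log2 ratio. CPM are TMM-normalized. Depth was 2318148 to 10764182 counts per library, and the lowest count of any of the 10 genes was 82, so counting error was small beside the spread between libraries. No library was the same sequencing data deposited again, since libraries of a group differed beyond counting noise (chi-square per degree of freedom 23.2 to 135), which does not show that they came from different animals. Replicate numbers 1 to 4 were not stated to pair the libraries, so the main fit used no block. The correlations over 4 pairs given below cannot exclude a pairing.

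Lengths and coordinates were taken from GENCODE and RefSeq (GRCm38), with lengths of the first-listed transcript. Figures and tables used Python 3.11.15, numpy 2.4.6, pandas 2.3.3, matplotlib 3.10.9 and biopython 1.88. The test scripts were tested on simulated data.

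The acute phase genes and the gene lists were chosen with earlier results of these data known. All 10 acute phase genes are named. Of each list, genes past the edgeR threshold (there were none) and the 2 highest and 2 lowest fold changes at a mean of at least 5 CPM are named. The 3 genes most like Saa1, Saa3, Hp and Lcn2 are named too. Alternatives were other size factors, filters on low counts, removal of the 10 most abundant or of mitochondrial, rRNA, Gm and Rik genes, DESeq2, a replicate block, each library left out, other pseudocounts and CPM without TMM. Leaving out both libraries that stood apart, scaling to Alb, Apoa1 and Ttr, other references and summing like Apoe-/- libraries were added after seeing the data. Promoters of Hp and Orm1 were not used here.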

Additional observations from a re-analysis of the deposited data

Results flagged for a closer look

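Of 20 groups examined, 10 genes in each of 2 genotypes, 2 held a library far from the rest by Dixon's test, and chance flags about 1 group in 20. Both were Mif-2-/-Apoe-/- replicate 2. For Saa1 (237 CPM against 40.6 to 49.5 CPM), the gap to the next library was 0.955 of the range of the group, and for Hpx (11360 CPM against 2153 to 3318 CPM) it was 0.874, above the critical value of 0.829 for 4 libraries. The same library had the highest share of counts on Alb of all 9, at 6.62%. Per 1000 counts of Alb, Apoa1 and Ttr, it had 1.59 for Saa1 against 0.616 to 0.841 in the other Mif-2-/-Apoe-/- libraries and 76.1 for Hpx against 34.3 to 66.1. On that scale, which lowers this library because of its high share of Alb, both values were below those of every Apoe-/- library.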

How the results depend on the processing

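In each edgeR and DESeq2 fit run, all acute phase genes with a value had a positive log2 fold change (Apoe-/- over Mif-2-/-Apoe-/-). Other size factors, other filters and removal of gene classes gave 22 to 37 called genes, against 25, and none of the acute phase genes among them. DESeq2 called 724 genes and 4 of the 10, Saa1 at 2.51, Saa2 at 2.29, Saa3 at 2.04 and Lcn2 at 1.19, and Saa1 plus Saa2 at 2.41. With both libraries that stood apart left out, 1361 genes and 9 of the 10 were called, with a median of 2.08 for the 10 genes, at 3.93 for Saa1, 3.27 for Saa2, 2.81 for Saa3, 1.46 for Hp, 2.45 for Hpx, 1.90 for Orm1, 2.26 for Orm2, 1.64 for Lcn2, 1.65 for Apcs, 3.62 for Saa1 plus Saa2 and 1.94 for Orm1 plus Orm2, and in the permutation test 1.96 for Orm1 and 1.63 for Apcs. Scaling to Alb, Apoa1 and Ttr moved the median of all genes from -0.10 to -0.52 and gave 5 called genes, 2 higher and 3 lower in Apoe-/- livers against 13 and 12, and 2.20 for Saa1 plus Saa2, now called. Summing Apoe-/- replicates 1 with 2 and 3 with 4 gave 8 called genes and none of the 10. CPM without TMM factors brought Orm1 past the permutation threshold at 0.957. The cause of these changes was not tested, except that the alternatives without libraries removed those that overlapped.

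With the replicate number as a block, 682 genes and 8 of the 10 were called (2.80% of all genes were called higher in Apoe-/- livers), at 3.33 for Saa1, 2.90 for Saa2, 2.58 for Saa3, 1.26 for Hp, 2.01 for Hpx, 1.59 for Orm1, 1.85 for Orm2, 1.50 for Lcn2, 3.11 for Saa1 plus Saa2 and 1.62 for Orm1 plus Orm2. Apoe-/- replicate 5 has no partner and drops out of this comparison. The numbers share no stated origin, the deviations of same-numbered libraries correlated at -0.0134 to 0.135 over 4 pairs, and 1 of 8 libraries correlated best with its own number, so the block is not read as pairing.

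Leaving out each library in turn gave 9 to 271 called genes and 0 to 5 of the 10, with calls among the 10 only without Apoe-/- replicate 5 (254 genes, 4 of the 10) or Mif-2-/-Apoe-/- replicate 2 (271 genes, 5 of the 10). The log2 fold changes ranged over 2.30 to 3.69 (Saa1), 2.10 to 3.09 (Saa2), 1.84 to 2.59 (Saa3), 1.21 to 2.26 (Hpx), 1.01 to 2.07 (Orm2), 1.08 to 1.47 (Lcn2), 0.34 to 0.72 (Saa4, lowest without Mif-2-/-Apoe-/- replicate 3), 0.64 to 1.56 (Apcs, highest without Mif-2-/-Apoe-/- replicate 2) and 2.22 to 3.40 (Saa1 plus Saa2). The permutation differences ranged over 2.55 to 3.42 (Saa1), 1.79 to 2.57 (Saa3), 0.83 to 1.26 (Hp), 1.35 to 2.15 (Hpx), 1.06 to 1.67 (Orm1), 1.13 to 2.03 (Orm2), 1.02 to 1.50 (Lcn2), 0.87 to 1.51 (Apcs), where Saa1, Saa3, Hp, Hpx, Orm2 and Lcn2 missed the threshold without some libraries and Orm1 and Apcs passed it without others. As to depth, the lowest count of any of the 10 genes in a library was 82.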
